A study of Mus musculus with 34 samples.

Results

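Monocytes sorted from MC38 tumors were compared with monocytes sorted from the spleens of mice that carried MC38 tumors. The comparison takes 8 of the 34 libraries in the series, 4 from tumor and 4 from spleen, chosen by their titles. The series sequenced messenger RNA of monocytes and macrophages of mice, and 24 of its libraries, in 6 groups of 4, came straight from mice of the C57/Bl6 strain. The tumor group holds monocytes gated by fluorescence-activated cell sorting as Ly6C+ CD88+ Sca1+, named TuMon1 in the titles. The spleen group holds Ly6C+ monocytes, and its labels name neither CD88 nor Sca1, so the gates of the groups differ. MC38 is a colon adenocarcinoma line. A further comparison used Ly6C+ CD88+ Sca1- monocytes of LLC tumors, a Lewis lung carcinoma line, and Ly6C+ monocytes from the spleens of mice with LLC tumors (4 libraries each). No group carries a named allele or drug, and no age is given. The labels do not say whether replicates were separate mice or whether tumor and spleen came from the same mice, so the p-values measure the spread among these libraries.

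Ly6C-high monocytes leave the bone marrow under control of the chemokine receptor CCR2, circulate, and enter inflamed tissue and tumors, where they can become macrophages or antigen-presenting cells. The spleen keeps a reservoir of monocytes, both the classical Ly6C-high kind and the nonclassical Ly6C-low kind that patrols vessels. Sca1, encoded by Ly6a, is a surface protein that interferons induce in many cell types, and CD88, encoded by C5ar1, is the receptor for the complement fragment C5a. Inside a tumor monocytes meet low oxygen, dying cells, cytokines and interferons, and each of these is known to act through its own set of target genes.

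The 8 libraries held between 14352133 and 22830966 estimated counts, with counts in 14047 to 16782 genes. Values below are CPM, counts scaled to a common library size with TMM factors. A gene was called when its adjusted p was under 0.05 in edgeR's quasi-likelihood test with Benjamini-Hochberg adjustment, and differences are given as log2 of tumor over spleen with the standard error (SE). Spleen replicates 1, 2 and 3 carried transcripts of fat cells and spleen replicate 4 did not. Car3, a carbonic anhydrase abundant in fat and muscle, stood at 0.148, 1.72, 4.22 and 12.9 CPM in tumor replicates 1 to 4 and at 2603, 2429, 4572 and 1.65 CPM in spleen replicates 1 to 4. The hormone gene Adipoq reached at most 1.61 CPM in tumor libraries and stood at 433, 380, 686 and 0.132 CPM in the spleen libraries. Each gene was therefore tested in 2 ways, against all 4 spleen libraries and against spleen replicate 4 alone. Below, a gene "rose" or "fell" when it was called against all 4 spleen libraries and had the same sign against replicate 4, and it did so "in both fits" when it was also called against replicate 4.

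**Figure D1:**
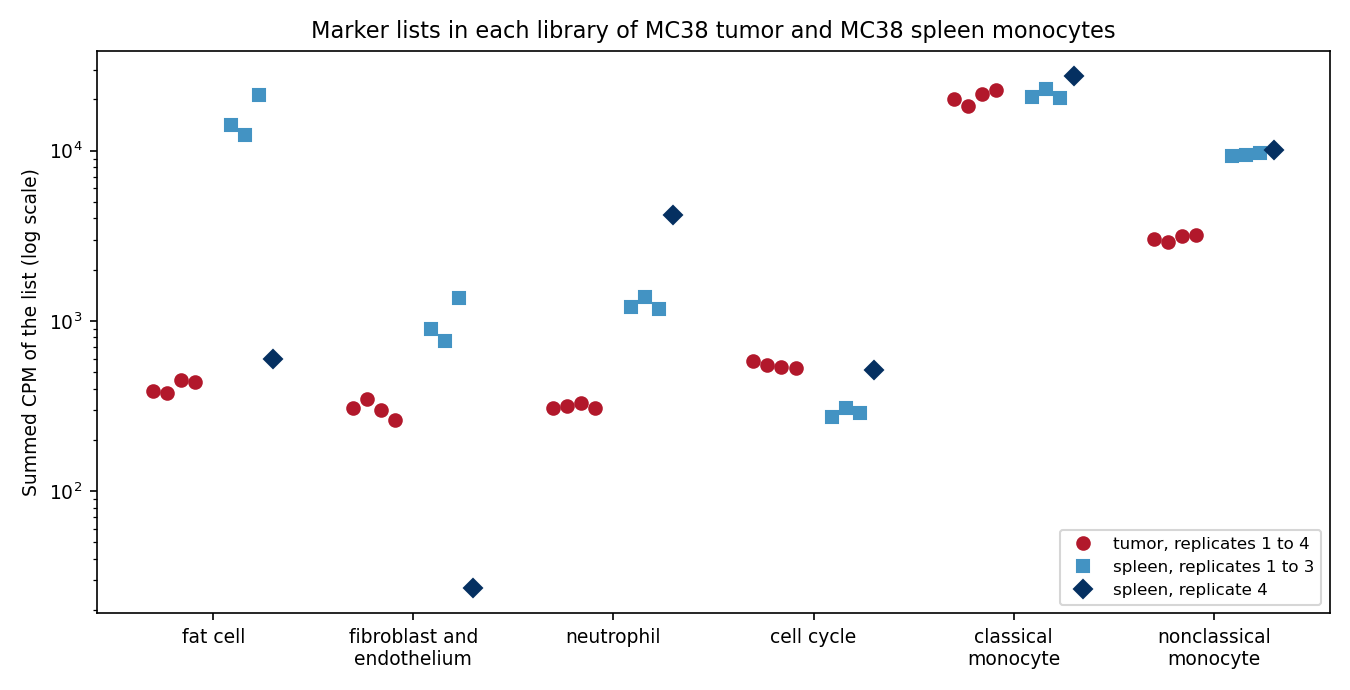
Summed CPM of 6 marker lists in each library (log axis), with the 4 tumor libraries (red circles) left of spleen replicates 1 to 3 (blue squares) and spleen replicate 4 (dark diamond). The fat cell list sums to 378 to 448 CPM in tumor, 12439 to 21218 CPM in spleen replicates 1 to 3 and 594 CPM in spleen replicate 4, while the neutrophil list is highest in spleen replicate 4 at 4198 CPM.

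Replicate 4 differed from the other spleen libraries in more than fat. The 18 markers of fibroblasts and endothelium summed to 261 to 347 CPM in tumor libraries, against 759 to 1371 CPM in spleen replicates 1 to 3 and 27.1 CPM in replicate 4. Neutrophil markers (16 genes) summed to 307 to 328 CPM in tumor, against 1170 to 1391 CPM in spleen replicates 1 to 3 and 4198 CPM in replicate 4. In the spleen libraries of LLC mice the neutrophil sum was 3659 to 5712 CPM and the fat cell sum 534 to 597 CPM, and replicate 4 lay inside these ranges for both lists. The plot of marker lists shows these sums by library. The part that such transcripts play in any single result was not tested, and values against replicate 4 are given beside those against all 4 libraries.

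The genes of the sorted antigens follow the gates and are a check of the labels, not a result. Ly6a stood at 1702, 1696, 1732 and 1806 CPM in the tumor libraries and at 56.6, 20.1, 28.7 and 18.1 CPM in the spleen libraries (log2 difference 5.81 ± 0.64 SE). C5ar1 stood at 371, 391, 392 and 361 CPM in tumor and at 32.4, 19.6, 23.5 and 37.2 CPM in spleen (3.76 ± 0.16). Ly6c2 encodes Ly6C, the antigen both gates name. It stood at 2826, 2705, 2821 and 3010 CPM in tumor and at 457, 496, 412 and 603 CPM in spleen (2.53 ± 0.22), and LLC spleen monocytes had 601 to 811 CPM. Its near-identical neighbor Ly6c1 averaged 42.2 ± 5.07 CPM in tumor and 18.7 ± 7.56 CPM in spleen (SD, n = 4 each), and reads that map to both genes make the split between them uncertain. No library of the tumor group overlapped one of the spleen group for any of the 4 genes.

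Against all 4 spleen libraries 4428 of 13200 genes tested (33.5%) were called higher in tumor monocytes and 4830 (36.6%) lower. The sign held against replicate 4 for 4335 of the higher calls (32.8% of genes tested) and 4105 of the lower calls (31.1%). In both fits 3152 genes (23.9%) were higher and 3221 (24.4%) lower, and 1605 and 1344 of these differed by more than 2-fold in both. These percentages are the background against which each list below is read. Against replicate 4 alone 3758 genes (28.5%) were called higher and 3548 (26.9%) lower. The sign turned for 93 higher and 725 lower calls, and 226 of the lower calls passed as higher against replicate 4. The median log2 difference of all genes tested was -0.04 against 4 spleen libraries and 0.03 against replicate 4. In bulk RNA, fewer cells that express a gene and less RNA of it per cell cannot be told apart.

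**Figure D2:**
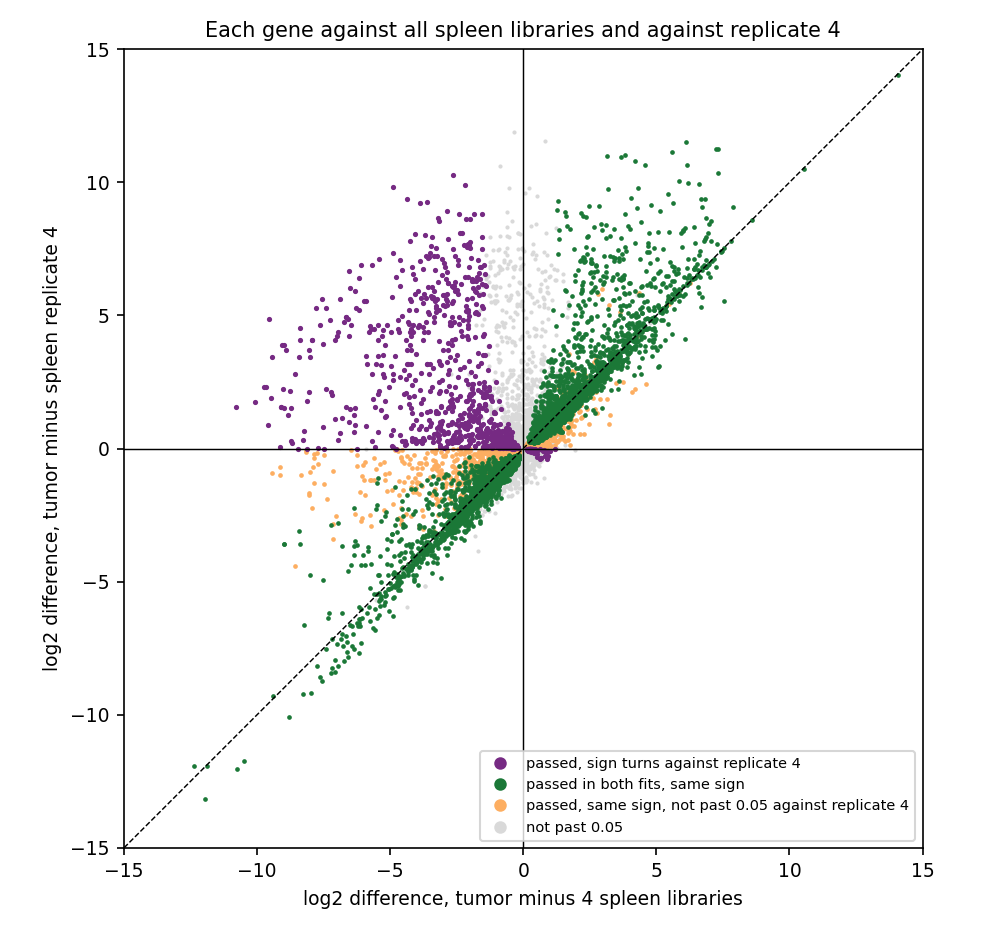
Each point is 1 of the 13200 genes tested, with its log2 difference (tumor minus spleen) against all 4 spleen libraries on the x axis and against spleen replicate 4 alone on the y axis; the dashed line marks equal values. The 3152 rises and 3221 falls called in both fits (green) share their sign on both axes, though 323 of these rises are over 2-fold larger against replicate 4, and the 725 lower calls whose sign turns (purple) lie in the upper left.

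The largest changes were named by a rule that asked for calls in both fits and no overlap of libraries. It also asked for a mean of 10 CPM or more on the higher side. The mean of spleen replicates 1 to 3 had to lie within 4-fold of replicate 4 after 1 CPM was added to each. Predicted gene models, IDs without a name, the genes of the sorted antigens and members of the fat cell list were passed over, so the ranking holds among the remaining genes. The 12 largest rises were H2-Q8, Tmem171, Ccl12, Areg, Il1a, Rhox5, Ptgs2, Rhov, Nr4a3, Ccl2, Il7r and Slc4a11. They averaged 15.7 to 1200 CPM in tumor monocytes, against 0 to 9.22 CPM in spleen monocytes, with log2 differences of 6.83 to 14.08 against all 4 spleen libraries and 7.10 to 14.04 against replicate 4. Markers of epithelium and tumor cells summed to 6.15 to 8.32 CPM in tumor libraries and 6.95 to 30.1 CPM in spleen libraries. Of the 4 tested markers 1 rose and 3 fell. The part of tumor cell RNA in the named rises was not tested. Ccl2 and Ccl12 encode ligands of CCR2, Il1a encodes a form of interleukin 1, Ptgs2 encodes cyclooxygenase-2, Areg encodes the epidermal growth factor receptor ligand amphiregulin, Il7r encodes the receptor chain for interleukin 7 and thymic stromal lymphopoietin, and Nr4a3 encodes an immediate early nuclear receptor.

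Ptgs2, whose enzyme makes the precursor of prostaglandins, lies on chromosome 1 (150100031 to 150108234, GRCm38). It stood at 1183, 1027, 1315 and 1277 CPM in the tumor libraries and at 28.3, 1.29, 1.99 and 5.36 CPM in the spleen libraries. Every tumor library lay far above every spleen library, and spleen replicate 1 was the highest of the spleen group (log2 difference 7.06 ± 0.85, adjusted p = 4.97e-07; against replicate 4, 7.80 ± 1.13). Ccl12 stood at 267, 362, 273 and 279 CPM in tumor and at 4.83, 0.312, 0.375 and 1.59 CPM in spleen (7.54 ± 0.85, adjusted p = 2.3e-07). Il7r stood at 170, 167, 134 and 189 CPM in tumor and at 5.24, 0.43, 0.3 and 0.397 CPM in spleen (6.85 ± 0.75, adjusted p = 1.29e-07), again with replicate 1 highest in spleen. Areg stood at 18.4, 15, 13.3 and 17.4 CPM in tumor and at 0.353, 0, 0.075 and 0 CPM in spleen (7.30 ± 0.46, adjusted p = 3.55e-12). H2-Q8, a class I gene of the Qa-2 family, had 107 to 114 CPM in tumor and 0 counts in all 4 spleen libraries. Set against 3 counts over the spleen group, H2-Q8 was at least 2432-fold higher in tumor, but its reads are shared with near-identical H2-Q genes and the authors' division of them makes the value uncertain.

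Spleen replicate 1 had the highest spleen value for 11 of the 11 named rises with any spleen counts, at 1.47% to 3.17% of the tumor mean (median 2.33%), where the medians of replicates 2, 3 and 4 were 0.165%, 0.182% and 0.357%. Across all 175 rises of more than 16-fold in both fits with at least 10 CPM in tumor, replicate 1 was the highest spleen library in 156. Among the 1164 such rises of more than 2-fold it was replicate 4 in 552 and replicate 1 in 349. What sets replicate 1 apart was not tested.

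The 12 largest falls were Jchain, S1pr5, Serpinb10, Hpgd, Ear10, Orm1, Nat8l, Mpo, Lcn2, Slc12a2, Cyp2ab1 and Ear2. They averaged 0 to 3.95 CPM in tumor monocytes, against 12.7 to 455 CPM in spleen monocytes, with log2 differences of -11.88 to -6.19 against all 4 spleen libraries and -11.91 to -6.54 against replicate 4. S1pr5 encodes a receptor for sphingosine 1-phosphate that patrolling monocytes and natural killer cells use to leave tissue. It stood at 0.542, 0.468, 0.329 and 0.454 CPM in tumor and at 98.6, 85.9, 80.3 and 130 CPM in spleen (-7.75 ± 0.41, adjusted p = 6.68e-13). Hpgd, whose enzyme inactivates prostaglandins, stood at 1.67, 0.728, 1.26 and 2.22 CPM in tumor and at 161, 170, 142 and 187 CPM in spleen (-6.79 ± 0.26, adjusted p = 1.49e-15). The gene that makes prostaglandin precursors thus rose and the gene that degrades prostaglandins fell. The lack of overlap was a condition of the naming rule.

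Jchain encodes the chain that joins secreted IgM and IgA, a product of plasma cells. It had 0 counts in the 4 tumor libraries and 28.2, 18.8, 23.8 and 24.9 CPM in the spleen libraries, which is at least 767-fold lower in tumor when set against 3 counts over the tumor group. The neutrophil granule genes Mpo and Lcn2 were highest in spleen replicate 4, where the whole neutrophil list was high. Mpo stood at 0.296, 0, 0.0548 and 0.202 CPM in tumor and at 8.53, 10, 7.43 and 25 CPM in spleen. Orm1, an acute phase protein, had 3 counts over the tumor libraries and 1263 over the spleen libraries, a ratio of 492 (95% exact counting interval 168 to 2387). Ear2 and Ear10 are near-identical ribonuclease genes, so the values of each are uncertain, and Ear2 stood at 3.5, 1.66, 1.59 and 5.29 CPM in tumor and at 216, 208, 182 and 282 CPM in spleen.

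**Figure D3:**
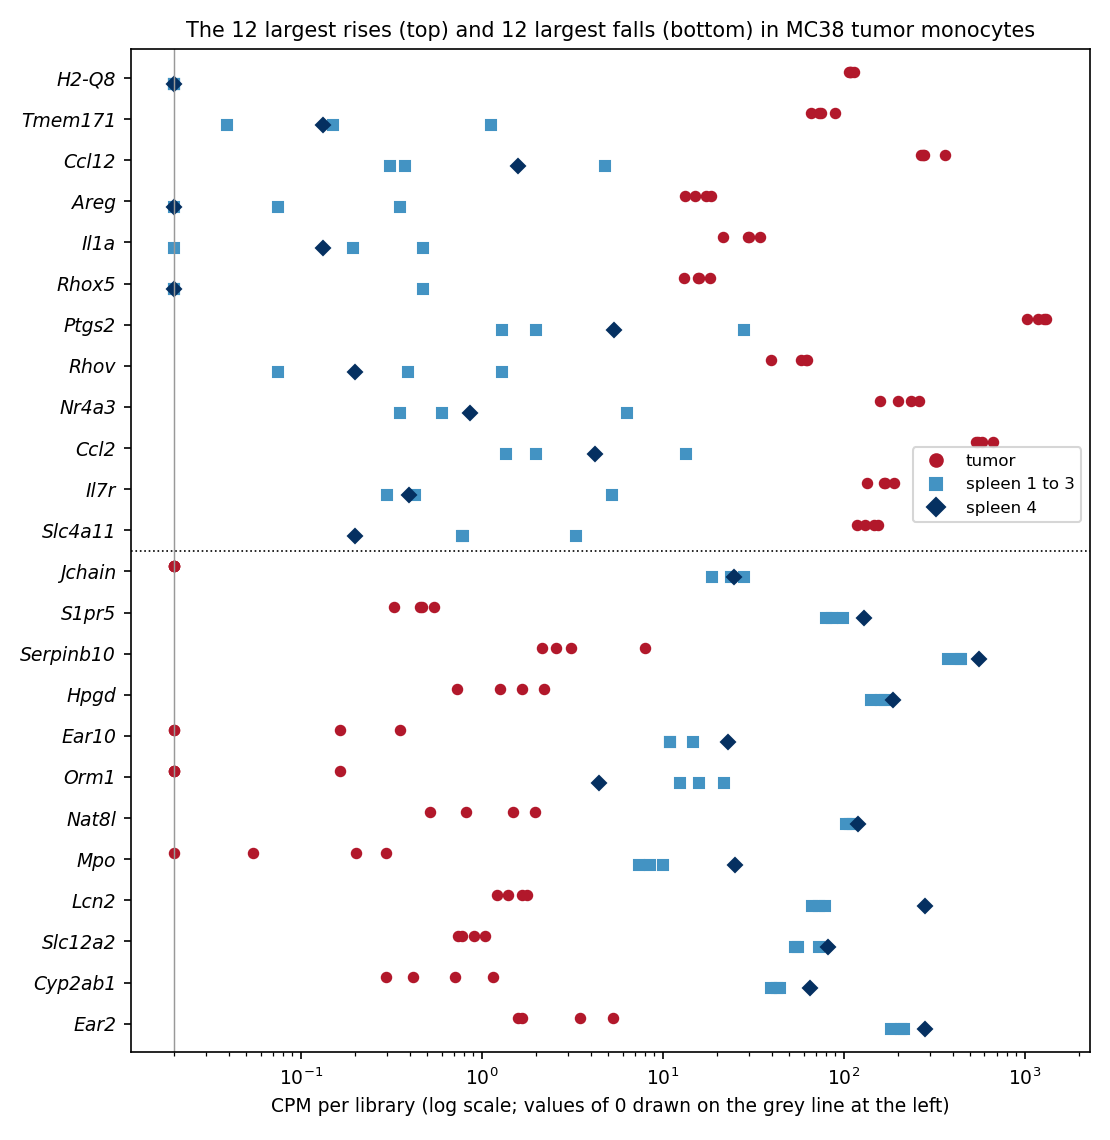
CPM in each library (log axis) for the 12 largest rises (upper block) and the 12 largest falls (lower block), with tumor libraries as red circles above the spleen libraries of the same gene (blue squares, and a dark diamond for replicate 4). For every gene shown the 4 tumor libraries lie on 1 side of the 4 spleen libraries, and among the rises spleen replicate 1 is the highest spleen library wherever spleen counts exist.

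The bases just upstream of the start of 4 of these genes, the largest rises and falls with an entry in the promoter table, are shown because they are where a shared element would be sought. They are the 250 bases before each start in RefSeq's annotation of GRCm38.p6, 5′ to 3′ on the gene's strand. Capitals mark 2 searched motifs, GAAANNG (the start of the interferon stimulated response element core) and ACGTG (the hypoxia response element core), on either strand. The AP-1 element TGANTCA was also searched and was found in none of the 4. The Ccl12 window is chr11:82101595-82101844 on the plus strand, and GAAANNG matches 188 to 182 bases before the start on the minus strand and 157 to 151 bases before it on the plus strand.
Ccl12: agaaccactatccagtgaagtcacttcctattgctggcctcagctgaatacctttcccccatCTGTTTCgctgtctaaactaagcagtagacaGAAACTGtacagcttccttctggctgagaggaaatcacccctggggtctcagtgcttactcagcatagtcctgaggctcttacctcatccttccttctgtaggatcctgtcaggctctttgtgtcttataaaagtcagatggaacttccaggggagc
The Areg window, chr5:91139349-91139598 on the plus strand, has none of the 3 motifs in this window.
Areg: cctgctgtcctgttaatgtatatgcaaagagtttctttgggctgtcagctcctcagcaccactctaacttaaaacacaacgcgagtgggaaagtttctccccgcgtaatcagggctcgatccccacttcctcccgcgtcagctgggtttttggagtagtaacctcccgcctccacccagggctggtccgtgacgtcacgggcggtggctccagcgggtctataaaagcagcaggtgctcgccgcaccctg
The Jchain window, chr5:88527898-88528147 on the minus strand, has ACGTG 69 to 65 bases before the start on the opposite strand. The bases after this start were not found in a GENCODE transcript of the gene, while those of Ccl12, Areg and S1pr5 were. The Jchain start, and the distance of the motif from it, are thus uncertain.
Jchain: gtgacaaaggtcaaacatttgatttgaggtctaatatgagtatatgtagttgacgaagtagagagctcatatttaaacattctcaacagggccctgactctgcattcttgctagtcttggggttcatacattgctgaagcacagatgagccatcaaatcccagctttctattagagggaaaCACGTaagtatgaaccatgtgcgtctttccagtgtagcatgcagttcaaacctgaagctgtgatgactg
The S1pr5 window, chr9:21248444-21248693 on the minus strand, has GAAANNG 242 to 236 and 86 to 80 bases before the start.
S1pr5: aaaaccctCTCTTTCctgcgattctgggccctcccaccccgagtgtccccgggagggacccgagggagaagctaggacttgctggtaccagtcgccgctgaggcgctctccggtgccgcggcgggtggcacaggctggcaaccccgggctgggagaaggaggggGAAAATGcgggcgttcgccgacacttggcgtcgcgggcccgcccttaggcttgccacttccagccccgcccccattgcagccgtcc
Among 32851 promoter entries of the same length, 47% hold GAAANNG, 6.75% TGANTCA and 16.6% ACGTG, and a rise (Ccl12) and a fall (S1pr5) both carry the commonest of the motifs. A match describes letters in the window only.

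Interferon target genes rose together. All 31 tested members of the type I interferon list rose, and all 31 did so in both fits, where 32.8% and 23.9% of all genes tested rose. The median log2 difference of the list was 2.16 against all 4 spleen libraries and 1.99 against replicate 4, beside -0.04 and 0.03 over all genes. The tumor gate selected cells with Sca1, a protein that interferons induce, and the spleen labels do not name it. For interferon target genes, gate and tissue therefore coincide and cannot be told apart. Irf7, the transcription factor that amplifies interferon production, stood at 2750, 2887, 2708 and 2765 CPM in tumor and at 311, 285, 282 and 337 CPM in spleen (3.19 ± 0.12, adjusted p = 5.78e-17). Ifih1, the cytosolic sensor of long double-stranded RNA, stood at 486, 454, 522 and 497 CPM in tumor and at 109, 109, 98.6 and 123 CPM in spleen (2.16 ± 0.09). Bst2, which encodes the virus-tethering protein tetherin, averaged 404 ± 21.8 CPM in tumor and 53.4 ± 5.42 CPM in spleen (2.92 ± 0.12), and Herc6, which encodes the ligase for the ubiquitin-like modifier ISG15 in mice, averaged 217 ± 10.5 and 38.6 ± 3.81 CPM (2.49 ± 0.10). These 4 genes were named for the smallest adjusted p in the list, a choice that favors a small spread beside the difference. Replicate 4 gave log2 differences of 3.04, 1.99, 2.74 and 2.32 for Irf7, Ifih1, Bst2 and Herc6.

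The list linked to interferon gamma also rose, with 24 of 24 tested members higher and 23 of them in both fits (median 2.87, and 2.63 against replicate 4). Gbp7, a guanylate binding protein of cell-autonomous defense, stood at 301, 283, 337 and 327 CPM in tumor and at 36, 34.5, 38 and 44.7 CPM in spleen (3.03 ± 0.13, adjusted p = 5.62e-16). The immunity-related GTPase genes Igtp and Irgm1 averaged 441 ± 26 and 538 ± 34.1 CPM in tumor, against 67.6 ± 4.85 and 141 ± 13 CPM in spleen (2.71 ± 0.15 for Igtp and 1.93 ± 0.10 for Irgm1). Socs1, the feedback inhibitor of interferon receptor signalling, stood at 70.4, 66.2, 68.4 and 82 CPM in tumor and at 3.59, 1.91, 1.69 and 3.18 CPM in spleen (4.84 ± 0.27). Both the effector genes and the inhibitor were thus higher in tumor. The chemokine gene Cxcl10, named after its values were seen, stood at 1523, 1549, 1392 and 1727 CPM in tumor and at 56.5, 20.4, 21.4 and 34.2 CPM in spleen (5.55 ± 0.53).

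Antigen presentation genes were higher in tumor monocytes. Of 10 tested genes of class II presentation 8 rose, 7 in both fits, and none fell (median 1.55, and 1.40 against replicate 4). The chain genes H2-Ab1 and H2-Aa, which present peptides to CD4 T cells, stood apart in all libraries. H2-Ab1 stood at 2953, 2437, 3392 and 3524 CPM in tumor and at 463, 574, 485 and 664 CPM in spleen (2.49 ± 0.17, adjusted p = 1.09e-11). H2-Aa averaged 2922 ± 469 and 594 ± 92.6 CPM (2.30 ± 0.17), H2-Eb1 2357 ± 390 and 329 ± 35.2 CPM (2.84 ± 0.18), and H2-DMb1, a chain of the peptide exchanger, 368 ± 49.3 and 111 ± 17.6 CPM (1.74 ± 0.15), each with tumor given before spleen. Dendritic cells also carry class II molecules, and their markers summed to 71.8 to 83.9 CPM in tumor and 222 to 258 CPM in spleen. Of the 15 tested markers 10 fell, while Ccr7 and Fscn1 rose. The part of dendritic cells in the class II values was not tested.

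Among 20 tested class I presentation genes 19 rose, 18 in both fits, and none fell (median 1.31, and 1.06 against replicate 4). B2m, the light chain shared by class I molecules, stood at 5516, 5920, 5324 and 6067 CPM in tumor and at 2314, 2298, 2168 and 2776 CPM in spleen (1.26 ± 0.07, adjusted p = 1.49e-13). The heavy chain gene H2-K1 averaged 3939 ± 121 CPM in tumor and 1336 ± 128 CPM in spleen (1.56 ± 0.09). The Qa region genes H2-Q4 and H2-Q7 had log2 differences of 2.22 ± 0.09 and 3.52 ± 0.19, with reads shared in their family and hence an uncertain division between them.

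**Figure D4:**
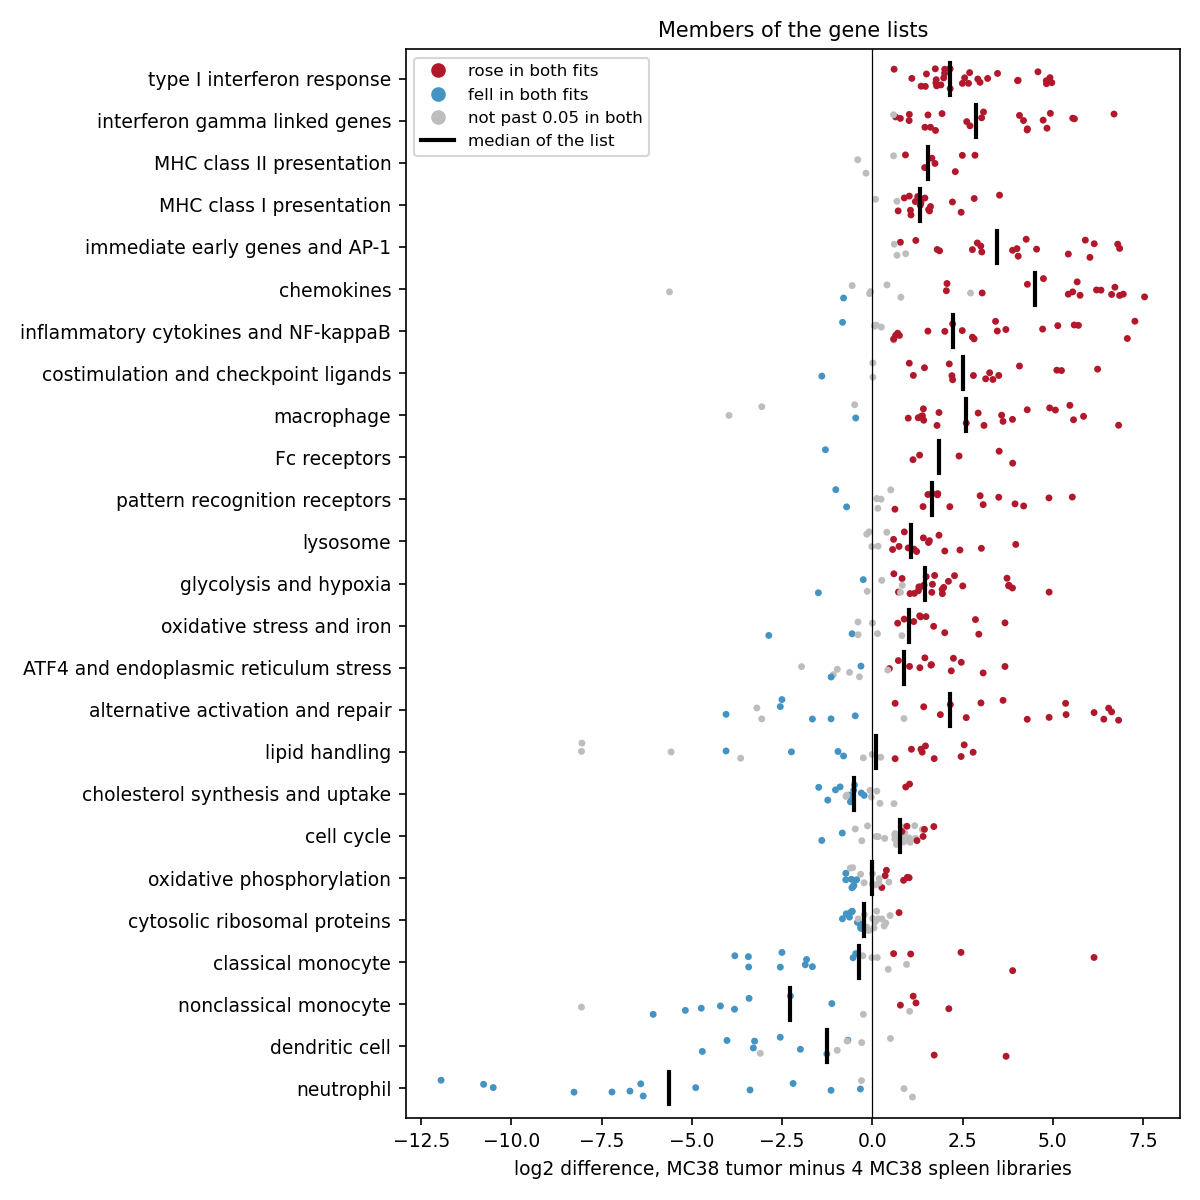
The log2 difference (MC38 tumor minus 4 MC38 spleen libraries) of each tested member of 25 gene lists, with members called in both fits in red (higher) or blue (lower), others in grey, and the median of each list as a black bar. The interferon, immediate early and chemokine lists lie mostly to the right of 0 and the neutrophil and nonclassical monocyte lists mostly to the left, and the type I interferon list has a median of 2.16.

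Inflammatory mediators were mostly higher. Of 25 tested cytokine and NF-kappaB genes 20 rose, 19 in both fits, and 1 fell (median 2.22, and 1.90 against replicate 4). Il1b, named after its values were seen, stood at 5448, 4754, 5709 and 6416 CPM in tumor and at 186, 77.5, 57.8 and 106 CPM in spleen (5.71 ± 0.46, adjusted p = 1.27e-09). Nlrp3, the sensor of the inflammasome that activates interleukin 1 beta, stood at 701, 574, 737 and 733 CPM in tumor and at 66.7, 64.6, 55.8 and 70.6 CPM in spleen (3.41 ± 0.12, adjusted p = 1.31e-17). Tnfaip3, which encodes the NF-kappaB inhibitor A20, averaged 816 ± 47.5 CPM in tumor and 74.1 ± 12 CPM in spleen (3.46 ± 0.13). Nfkbie, another inhibitor, averaged 640 ± 60.9 and 90.9 ± 15 CPM (2.82 ± 0.12), and the costimulatory receptor gene Cd40 161 ± 11.6 and 34.5 ± 5.69 CPM (2.22 ± 0.13), in tumor and in spleen. The exception was Nfkb1, which encodes the p105 precursor of NF-kappaB p50 and stood at 254, 253, 267 and 252 CPM in tumor, against 402, 474, 413 and 530 CPM in spleen (-0.83 ± 0.08, adjusted p = 1.06e-09).

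Chemokine genes showed wide changes, with 18 of 24 tested members higher, 16 in both fits, and 2 lower, 1 in both fits (median 4.52, and 5.56 against replicate 4). Ccl5, which attracts T cells and monocytes, stood at 208, 194, 208 and 255 CPM in tumor and at 8.01, 3.63, 4.39 and 4.37 CPM in spleen (5.43 ± 0.27, adjusted p = 2.49e-13). Cxcl9, an interferon gamma target that attracts CXCR3-bearing T cells, stood at 331, 297, 479 and 469 CPM in tumor and at 19.7, 16.2, 20.4 and 24.2 CPM in spleen (4.30 ± 0.33). Ccl2, the ligand that draws CCR2-bearing monocytes, stood at 539, 667, 554 and 578 CPM in tumor and at 13.5, 1.37, 1.99 and 4.24 CPM in spleen (6.85 ± 0.72). Cxcl1, which attracts neutrophils, stood at 12.4, 13.3, 12.2 and 13.7 CPM in tumor and at most at 0.412 CPM in spleen. Ccl3 averaged 213 ± 30.9 CPM in tumor and 8.16 ± 4.2 CPM in spleen (4.74 ± 0.34). Against this trend Ccl6 averaged 269 ± 33.1 CPM in tumor and 468 ± 77 CPM in spleen (-0.80 ± 0.14). Cxcl12, a ligand of stromal cells, stood at 0.0985, 0.156, 0.274 and 0.706 CPM in tumor and at 18.1, 15.3, 28.1 and 0.397 CPM in spleen, and against replicate 4 it was not called (log2 difference -0.36 ± 1.12, adjusted p = 0.807).

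All 22 tested immediate early genes rose, 19 of them in both fits (median 3.46, and 3.70 against replicate 4). These are genes that cells switch on within minutes of a stimulus. Atf3, a stress-induced transcription factor, stood at 1039, 1220, 1000 and 1185 CPM in tumor and at 77.8, 54.1, 55.9 and 89.1 CPM in spleen (4.01 ± 0.21, adjusted p = 1.36e-13). Fosl2, a subunit of AP-1, averaged 1016 ± 131 CPM in tumor and 149 ± 25.2 CPM in spleen (2.77 ± 0.12). Zfp36, which encodes the mRNA-destabilizing protein tristetraprolin, averaged 3737 ± 73.5 and 466 ± 110 CPM (3.0 ± 0.15), and the growth regulator Myc 65.6 ± 5.89 and 4.39 ± 1.43 CPM (3.88 ± 0.18), in tumor and in spleen. Tissue and group coincide, so differences in how tumor and spleen were handled and differences between the cells cannot be told apart here.

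Genes of glycolysis and the hypoxia response rose in 26 of 30 tested cases, 24 in both fits, and 2 fell in both fits (median 1.46, and 1.75 against replicate 4). Gapdh, the dehydrogenase at the middle of glycolysis, stood at 3734, 3572, 3313 and 3739 CPM in tumor and at 951, 932, 862 and 997 CPM in spleen (1.94 ± 0.08, adjusted p = 1.83e-16). Pgam1, the mutase further down, averaged 579 ± 39 CPM in tumor and 151 ± 4.11 CPM in spleen (1.93 ± 0.08), and Pkm, the kinase of the last step, 2770 ± 139 and 873 ± 73.9 CPM (1.67 ± 0.08). Mif, a cytokine gene that hypoxia induces, stood at 184, 181, 155 and 187 CPM in tumor and at 14.8, 13.6, 11.7 and 11.2 CPM in spleen (3.78 ± 0.15). Vegfa, the hypoxia-induced growth factor of vessels, named after its values were seen, stood at 1073, 883, 1027 and 1112 CPM in tumor and at 58.3, 26.7, 46.4 and 5.49 CPM in spleen. Its log2 difference was 4.90 ± 0.69 against all 4 spleen libraries and 7.53 ± 1.33 against replicate 4, where the spleen value was the lowest. The members that went the other way were Bnip3l, a receptor for removal of mitochondria, at 62.7 ± 4.64 CPM in tumor and 177 ± 21.2 CPM in spleen (-1.50 ± 0.09), and Pfkfb4, at 105 ± 3.27 and 125 ± 16.1 CPM (-0.25 ± 0.10, adjusted p = 0.03). The call for Pfkfb4 was lost when tumor replicate 2, tumor replicate 4 or spleen replicate 4 was left out.

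In the oxidative stress and iron list 11 of 18 tested members rose and 2 fell, all in both fits (median 1.01, and 1.22 against replicate 4). Fth1, the heavy chain of the iron store ferritin, stood at 8408, 8759, 7436 and 8748 CPM in tumor and at 1226, 1087, 1274 and 1016 CPM in spleen (2.86 ± 0.10, adjusted p = 8.65e-18). Srxn1 and Txnrd1, targets of the oxidant sensor NRF2, averaged 68.4 ± 5.87 and 166 ± 23.7 CPM in tumor, against 8.76 ± 2.36 and 51.3 ± 3.23 CPM in spleen (2.95 ± 0.14 and 1.70 ± 0.09). Gsr, which regenerates reduced glutathione, went the other way at 88.1, 71.6, 72.5 and 112 CPM in tumor and 606, 593, 531 and 790 CPM in spleen (-2.87 ± 0.14). Gclc, of glutathione synthesis, also fell (-0.56 ± 0.08).

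Genes of the ATF4 and endoplasmic reticulum stress list rose in 13 of 20 cases, 12 in both fits, and 2 fell in both fits (median 0.87, and 1.38 against replicate 4). Slc7a11, the cystine importer, stood at 36, 31.1, 36 and 49.8 CPM in tumor and at 2.88, 2.03, 2.59 and 4.83 CPM in spleen (3.68 ± 0.21). The chaperone gene Hspa5, also known as BiP, averaged 1611 ± 82.6 CPM in tumor and 588 ± 21.4 CPM in spleen (1.45 ± 0.07), Atf4 itself 378 ± 29.3 and 122 ± 9.11 CPM (1.64 ± 0.09), and Ddit3, which encodes CHOP, 70.8 ± 5.48 and 15 ± 2.01 CPM (2.25 ± 0.15). Herpud1, of protein degradation at the endoplasmic reticulum, fell (-1.14 ± 0.09), as did Xbp1, the factor of the IRE1 branch (-0.32 ± 0.07). Another 4 members of this list were called lower against all 4 spleen libraries and had the opposite sign against replicate 4.

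Cholesterol genes were mostly lower. Of 20 tested genes of synthesis and uptake 13 fell, 11 in both fits, and 3 rose, 2 in both fits (median -0.51, and -0.48 against replicate 4). Mvd, the decarboxylase of the mevalonate pathway, stood at 10.1, 9.83, 11.3 and 11.1 CPM in tumor and at 26.1, 27.8, 26.3 and 38.6 CPM in spleen (-1.49 ± 0.12, adjusted p = 6.6e-11). Hmgcs1, an early synthase of the pathway, averaged 43.2 ± 5.51 CPM in tumor and 80.3 ± 9.96 CPM in spleen (-0.89 ± 0.09). Among the genes that rose were Insig1, which restrains the pathway in sterol-rich cells (118 ± 21.6 CPM in tumor and 57.6 ± 6.78 CPM in spleen, 1.03 ± 0.12) and Pmvk (38 ± 5.01 and 20 ± 3.61 CPM, 0.93 ± 0.13).

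Lipid handling was mixed, with 9 of 20 tested members higher, 9 in both fits, and 6 lower, 4 in both fits (median 0.11, and 0.66 against replicate 4). Plin2, the coat protein of lipid droplets, stood at 926, 979, 847 and 1095 CPM in tumor and at 193, 160, 179 and 167 CPM in spleen (2.46 ± 0.10, adjusted p = 2.66e-16). The cholesterol exporter gene Abcg1 averaged 342 ± 16.4 CPM in tumor and 104 ± 12.2 CPM in spleen (1.71 ± 0.09), the carrier Fabp5 276 ± 49.5 and 39.8 ± 4.93 CPM (2.79 ± 0.18), and Npc2, of lysosomal cholesterol release, 2065 ± 95.8 and 793 ± 61.5 CPM (1.38 ± 0.08). Abca1, another exporter, named after its values were seen, stood at 212, 202, 197 and 192 CPM in tumor and at 42.4, 36.4, 51 and 6.88 CPM in spleen (2.55 ± 0.36, and 4.86 ± 0.39 against replicate 4). These genes of lipid storage and export thus rose, while most genes of cholesterol synthesis fell. This list shares members with the fat cell list, whose 18 tested genes were all called lower against all 4 spleen libraries (median -8.57), while against replicate 4 the sign turned for 12 of them (median 1.52).

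Lysosomal genes rose in 16 of 20 tested cases, 15 in both fits, and none fell (median 1.08, and 1.02 against replicate 4). Lgmn, a protease of antigen processing, stood at 3275, 3534, 3129 and 3108 CPM in tumor and at 244, 181, 181 and 223 CPM in spleen (3.97 ± 0.13, adjusted p = 2.8e-18). The cathepsin genes Ctss and Ctsz averaged 5768 ± 186 and 1264 ± 39.9 CPM in tumor, against 1928 ± 241 and 430 ± 54.2 CPM in spleen (1.58 ± 0.07 and 1.56 ± 0.08).

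Macrophage genes were higher in the tumor monocytes. Of 25 tested members 21 rose, all 21 in both fits, and 2 fell, 1 in both fits (median 2.60, and 4.0 against replicate 4). Siglec1, the sialic acid receptor CD169 and an interferon target, stood at 610, 741, 757 and 495 CPM in tumor and at 54.5, 41.1, 40.3 and 40.6 CPM in spleen (3.88 ± 0.18). Axl, a receptor for the uptake of dying cells, averaged 743 ± 71.8 CPM in tumor and 87.2 ± 7.3 CPM in spleen (3.09 ± 0.11), and Cd68, a lysosomal glycoprotein, 1168 ± 97.2 and 438 ± 57.4 CPM (1.41 ± 0.08). Mertk, a receptor related to Axl and named after its values were seen, stood at 66.4, 77.3, 76.3 and 62.1 CPM in tumor and at 8.24, 4.88, 9.27 and 0.529 CPM in spleen (3.58 ± 0.44, and 7.03 ± 0.73 against replicate 4). Csf1r, the receptor that sustains monocytes and macrophages, fell slightly, at 1614 ± 102 CPM in tumor and 2222 ± 328 CPM in spleen (-0.46 ± 0.09), and Cd163, a scavenger receptor of resident macrophages, averaged 1.02 ± 0.239 and 8.52 ± 4.81 CPM (-3.07 ± 0.45, but -1.01 ± 0.59 and not called against replicate 4, adjusted p = 0.155).

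Nonclassical monocyte genes were mostly lower. Of 15 tested nonclassical markers 9 fell, 8 in both fits, and 5 rose, 4 in both fits (median -2.27, and -1.76 against replicate 4). Spn, which encodes the sialophorin CD43, stood at 40.4, 39.3, 34.9 and 34.1 CPM in tumor and at 618, 670, 614 and 854 CPM in spleen (-4.21 ± 0.10, adjusted p = 6.75e-20). Adgre4, an adhesion receptor of nonclassical monocytes, stood at 11.8, 10.4, 13.7 and 19.8 CPM in tumor and at 480, 503, 398 and 642 CPM in spleen (-5.18 ± 0.18), and Eno3 and Itgal fell by 4.74 and 3.42 on the log2 scale. Ace, a nonclassical marker named after its values were seen, stood at 31.4, 26.3, 25.2 and 50.2 CPM in tumor and at 2140, 2224, 1868 and 2742 CPM in spleen (-6.07 ± 0.29). Nonclassical markers summed to 2919 to 3214 CPM in tumor and 9278 to 10068 CPM in spleen, although the spleen libraries are labelled Ly6C+, and Ly6c2 was higher in tumor. LLC spleen libraries had similar sums, 7522 to 7934 CPM, and which cells carry these transcripts, and their part in the results, was not tested. Among the members that rose was Cd300e, also named after its values were seen, at 85.6 ± 20.9 CPM in tumor and 19.8 ± 4.9 CPM in spleen (2.12 ± 0.17), and the others were Nr4a1, Cebpb, Dusp16 and Cd300ld.

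The classical monocyte list was split, with 7 of 20 tested members higher, 5 in both fits, and 10 lower, all 10 in both fits (median -0.36, and -0.69 against replicate 4). Ms4a4c, an interferon-responsive member of the MS4A family, stood at 1615, 1687, 1625 and 1706 CPM in tumor and at 282, 300, 267 and 359 CPM in spleen (2.46 ± 0.08, adjusted p = 5.09e-18). Lyz2, the myeloid lysozyme, went the other way at 2672, 2404, 3095 and 3237 CPM in tumor and 9046, 10631, 9462 and 12243 CPM in spleen (-1.86 ± 0.10). Ccr2, named after its values were seen, averaged 808 ± 60.9 CPM in tumor and 596 ± 103 CPM in spleen (0.44 ± 0.12, adjusted p = 0.00167), but at 0.19 ± 0.16 it was not called against replicate 4 (adjusted p = 0.326), and against LLC spleen monocytes it was lower in tumor (-0.37).

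Receptors that guide cell movement went both ways, with 8 of 22 tested members higher, 7 in both fits, and 9 lower, all in both fits (median -0.19, and -0.29 against replicate 4). Cxcr4, the receptor for CXCL12 and a target of hypoxia, stood at 707, 899, 709 and 824 CPM in tumor and at 125, 114, 117 and 173 CPM in spleen (2.57 ± 0.14, adjusted p = 3.63e-14). The sphingosine 1-phosphate receptor gene S1pr4 averaged 0.376 ± 0.117 CPM in tumor and 16.1 ± 2.7 CPM in spleen (-5.40 ± 0.22), and S1pr5 is described above. Both of these receptors for a signal that draws cells out of tissue were thus low in tumor, and Itgal, the integrin chain of LFA-1 for adhesion to vessels, averaged 188 ± 30.9 and 2012 ± 383 CPM in tumor and in spleen.

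Genes of alternative activation and repair rose in 17 of 25 tested cases, 16 in both fits, and fell in 7, 6 in both fits (median 2.16, and 1.96 against replicate 4). Arg1, the arginase that breaks down arginine, named after its values were seen, stood at 267, 293, 191 and 253 CPM in tumor and at 8.06, 0.391, 0.901 and 1.46 CPM in spleen (6.63 ± 0.85, adjusted p = 1.25e-06). Spp1, which encodes osteopontin and was also named after its values were seen, stood at 589, 649, 445 and 473 CPM in tumor and at 15.8, 0.625, 1.2 and 2.32 CPM in spleen (6.82 ± 0.90). In both genes spleen replicate 1 was the highest spleen library. The scavenger receptor gene Msr1 averaged 804 ± 17.5 CPM in tumor and 99.9 ± 15.4 CPM in spleen (3.01 ± 0.11), the interleukin 4 receptor gene Il4ra 621 ± 27 and 139 ± 19.1 CPM (2.16 ± 0.11), and Plaur, the urokinase receptor gene, 539 ± 74.5 and 146 ± 24.6 CPM (1.88 ± 0.11). Fn1, which encodes fibronectin, went against them at 491, 406, 483 and 527 CPM in tumor and 2487, 2814, 2424 and 3101 CPM in spleen (-2.51 ± 0.12, adjusted p = 1.86e-15). The others that fell were Chil3, Cd163, Tgfb1, F13a1, Mmp8 and Cd36, with log2 differences of -4.05 to -0.47 over the 7.

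Complement genes rose in 9 of 15 tested cases and fell in 2, all in both fits (median 2.43, and 3.47 against replicate 4). Cfb, the protease component of the alternative pathway, stood at 1632, 1572, 1792 and 1642 CPM in tumor and at 100, 74.1, 89.9 and 61.6 CPM in spleen (4.35 ± 0.22, adjusted p = 2e-13). Cfp, which encodes the stabilizing protein properdin, averaged 379 ± 17.8 CPM in tumor and 65.9 ± 5 CPM in spleen (2.53 ± 0.09), and C1qb, a chain of C1q named after its values were seen, 1389 ± 82.3 and 29.2 ± 14.7 CPM (5.57 ± 0.57). The central component C3 fell (-0.54 ± 0.12). Itgax, a chain of complement receptor 4, averaged 544 ± 45 CPM in tumor and 101 ± 18.2 CPM in spleen (2.43 ± 0.12).

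The receptors for the constant region of antibodies rose in 5 of 6 tested cases and fell in 1, all in both fits (median 1.86, and 1.64 against replicate 4). Fcgr1, the high-affinity receptor, stood at 1803, 1893, 1735 and 1778 CPM in tumor and at 136, 116, 99.4 and 136 CPM in spleen (3.89 ± 0.14, adjusted p = 2.42e-17). Fcgr4, an activating receptor, averaged 609 ± 23.2 CPM in tumor and 53.5 ± 14.9 CPM in spleen (3.51 ± 0.18), the inhibitory receptor Fcgr2b 950 ± 32.6 and 180 ± 19.5 CPM (2.40 ± 0.11), and Fcgr3 732 ± 38.3 and 335 ± 38.7 CPM (1.13 ± 0.08). Activating and inhibitory receptors thus rose together. Fcgrt, the receptor that recycles antibody, fell (-1.30 ± 0.18, and -0.41 ± 0.16 against replicate 4), but its call against replicate 4 was lost with DESeq2 and without tumor replicate 1, 2 or 3.

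Sensors of microbial and damage products rose in 15 of 21 tested cases, 14 in both fits, and fell in 2 (median 1.66, and 1.44 against replicate 4). Tlr2, the receptor for bacterial lipopeptides, stood at 828, 721, 867 and 933 CPM in tumor and at 78.5, 71.9, 57.5 and 87.9 CPM in spleen (3.50 ± 0.12, adjusted p = 1.34e-17). Clec4n, which encodes Dectin-2, averaged 264 ± 12.5 CPM in tumor and 9.02 ± 2.71 CPM in spleen (4.89 ± 0.20), Tlr5, the flagellin receptor, 57.1 ± 5.07 and 6.8 ± 0.577 CPM (3.07 ± 0.15), and the lectin gene Clec4a2 207 ± 15.2 and 46.8 ± 9.02 CPM (2.15 ± 0.11). The members that fell were Tlr7, the endosomal sensor of single-stranded RNA (132 ± 7.16 CPM in tumor and 266 ± 51.1 CPM in spleen, -1.01 ± 0.17), and Nod1 (121 ± 6.27 and 198 ± 24.4 CPM, -0.71 ± 0.11).

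Costimulatory and checkpoint ligands rose in 15 of 18 tested cases and fell in 1, all in both fits (median 2.51, and 2.43 against replicate 4). Cd86, a ligand of CD28 and CTLA-4, stood at 236, 209, 244 and 282 CPM in tumor and at 29.1, 28.9, 24.6 and 27.5 CPM in spleen (3.14 ± 0.11, adjusted p = 1.31e-17). Its partner Cd80 averaged 90.2 ± 8.02 CPM in tumor and 8.01 ± 0.939 CPM in spleen (3.50 ± 0.14), Pvr, a ligand of TIGIT, 140 ± 9.92 and 13.8 ± 2.88 CPM (3.34 ± 0.11), and Tnfsf10, which encodes the death ligand TRAIL, 65 ± 3.4 and 6.81 ± 0.651 CPM (3.25 ± 0.12). Tnfrsf1b, the second receptor for tumor necrosis factor, fell, at 635 ± 21.7 CPM in tumor and 1675 ± 239 CPM in spleen (-1.40 ± 0.08).

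Cell cycle genes depended on the spleen library. Of 31 tested members 17 rose but only 6 did so in both fits, and 2 fell in both fits (median 0.77, and 0.05 against replicate 4). The list summed to 528 to 580 CPM in tumor, against 271 to 309 CPM in spleen replicates 1 to 3 and 513 CPM in replicate 4, while LLC spleen libraries had 400 to 538 CPM. The replication genes Mcm6, Mcm2 and Pcna were among the 6 that rose in both fits, with Mcm6 at 44.2, 45.2, 41.1 and 35.7 CPM in tumor and 16.6, 16.7, 15.6 and 21.9 CPM in spleen (1.24 ± 0.12, adjusted p = 1.36e-09), Mcm2 at 24.2 ± 5.53 CPM in tumor and 7.48 ± 1.23 CPM in spleen (1.70 ± 0.17), and Pcna at 153 ± 7.15 and 86.7 ± 15.1 CPM (0.82 ± 0.10). The members that fell were Kif23 and Aurkb, both of cell division (-1.40 ± 0.14 and -0.83 ± 0.17). Mki67, a marker of dividing cells named after its values were seen, stood at 31.2, 21.8, 25.9 and 23.7 CPM in tumor and at 19, 26.9, 24.1 and 74 CPM in spleen. The groups overlapped, and Mki67 was not called against all 4 spleen libraries (-0.47 ± 0.30, adjusted p = 0.173) but was lower against replicate 4 (-1.53 ± 0.23, adjusted p = 1.23e-05).

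Subunits of oxidative phosphorylation went both ways, with 7 of 23 tested members higher, 6 in both fits, and 10 lower, 7 in both fits (median -0.00, and 0.14 against replicate 4). Cycs, the electron carrier cytochrome c, averaged 226 ± 14 CPM in tumor and 115 ± 8.67 CPM in spleen (0.97 ± 0.07), and Cox7a2 88.3 ± 6.59 and 48.4 ± 3.97 CPM (0.87 ± 0.11). Sdha, of complex II, and Uqcrfs1, of complex III, fell (-0.74 ± 0.08 and -0.74 ± 0.10). Among 26 tested cytosolic ribosomal protein genes 12 fell, all 12 in both fits, and 3 rose, 1 in both fits (median -0.23, and -0.41 against replicate 4). Rpl5 averaged 443 ± 18.2 CPM in tumor and 787 ± 50.4 CPM in spleen (-0.83 ± 0.07), and Rpl3, Rpl4 and Rpl7 had log2 differences of -0.72, -0.63 and -0.60. Rplp1 rose, at 415 ± 30.3 CPM in tumor and 249 ± 30.8 CPM in spleen (0.74 ± 0.14), though against LLC spleen monocytes it was lower in tumor (-0.42). The others that rose were Rpl27 and Rps2.

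Neutrophil and dendritic cell markers were mostly lower in tumor libraries. Of 16 neutrophil genes 13 fell, all in both fits, and Ly6g and Mmp9 rose, neither in both fits (median -5.62, and -6.51 against replicate 4). Ngp stood at 0, 0.104, 0.11 and 0.252 CPM in tumor and at 255, 306, 260 and 1118 CPM in spleen, and S100a9 at 3.35, 2.6, 2.03 and 4.74 CPM in tumor and 254, 299, 247 and 1101 CPM in spleen. Ltf and Camp, of neutrophil granules, showed the same pattern, with 512 and 200 CPM in spleen replicate 4. Among 15 dendritic cell genes 10 fell, 8 in both fits, and Ccr7 and Fscn1 rose in both fits (median -1.26). Flt3 averaged 1.64 ± 0.282 CPM in tumor and 26.8 ± 2.11 CPM in spleen (-4.03 ± 0.21), Irf4 4.52 ± 0.425 and 43.5 ± 4.08 CPM (-3.26 ± 0.16), and Bcl11a, of plasmacytoid dendritic cells and B cells, 1.17 ± 0.31 and 30.9 ± 4.46 CPM (-4.71 ± 0.21). Dpp4 fell by 1.99 on the log2 scale. Of 11 tested T and natural killer cell genes 6 fell in both fits and 4 rose, Cd3d and Cd4 in both fits and Cd8a and Gzmb not. The whole list summed to 13.4 to 15.9 CPM in tumor and 20 to 24.6 CPM in spleen, and Cd2 was at 1.2 ± 0.345 CPM in tumor and 8.09 ± 0.639 CPM in spleen. B cell markers summed to 6.91 to 8.58 CPM in tumor and 16.5 to 56.3 CPM in spleen.

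The change from spleen was then set beside that in LLC tumors, by a test of the difference between the changes (MC38 change minus LLC change). The tumor gates differ in Sca1, so subset and tumor line coincide and cannot be told apart. With all libraries 3142 of 13200 genes (23.8%) had a larger value in MC38 and 2519 (19.1%) a smaller one, and 1643 (12.4%) and 1241 (9.40%) passed with the same sign when only replicate 4 stood for MC38 spleen. Which direction was the more frequent depended on the processing, since smaller values outnumbered larger ones with RLE scaling (2962 smaller and 2664 larger), without the expression filter (3064 and 2438), with DESeq2 (3190 and 2764) and with only the groups compared (3074 and 2508). Counts for lists below use the stricter rule with replicate 4. Larger and smaller refer to the signed change, so a gene that fell further from spleen in MC38 than in LLC counts as smaller. The median difference between changes over all genes was 0.04, and 0.08 with replicate 4.

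Interferon and antigen presentation genes mostly had larger signed changes in MC38. Of 31 type I interferon genes 29 had a larger change in MC38 and none a smaller one, with a median change of 2.16 in MC38 and 0.96 in LLC. Among the interferon gamma linked genes 19 of 24 were larger in MC38 (medians 2.87 and 1.18), and 18 of 20 class I genes were (medians 1.31 and 0.14). Of 10 class II genes 7 were larger, and here the medians had opposite signs, 1.55 in MC38 and -0.53 in LLC. H2-Ab1 changed by 2.49 in MC38 and by -0.49 in LLC (difference 2.98 ± 0.23, adjusted p = 2.01e-09). Ccl5 changed by 5.43 in MC38 and 0.41 in LLC (difference 5.02 ± 0.35).

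Cholesterol and glycolysis genes differed the other way. Of 20 cholesterol genes 16 had a smaller change in MC38 and none a larger one, with medians of -0.51 in MC38 and 1.07 in LLC. Sqle, squalene epoxidase, averaged 11.8 ± 1.09 CPM in MC38 tumor and 18.4 ± 1.91 CPM in MC38 spleen, and 60.7 ± 2.09 and 16.9 ± 1.7 CPM in LLC tumor and spleen (difference between changes -2.48 ± 0.13, adjusted p = 8.36e-13). The glycolysis medians were positive in both tumors, 1.46 in MC38 and 2.32 in LLC, and 16 of 30 genes had a smaller change in MC38 and none a larger one. Cell cycle genes had a larger value in MC38 in 23 of 31 cases and a smaller one in none, with medians of 0.77 in MC38 (0.05 against replicate 4) and -1.62 in LLC. T and natural killer cell genes had medians of -1.23 in MC38 and -3.31 in LLC. The spleen levels of this list differed, with sums of 20 to 24.6 CPM in MC38 spleen and 48.6 to 73.4 CPM in LLC spleen libraries. The part of these spleen levels in the difference was not tested.

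**Figure D5:**
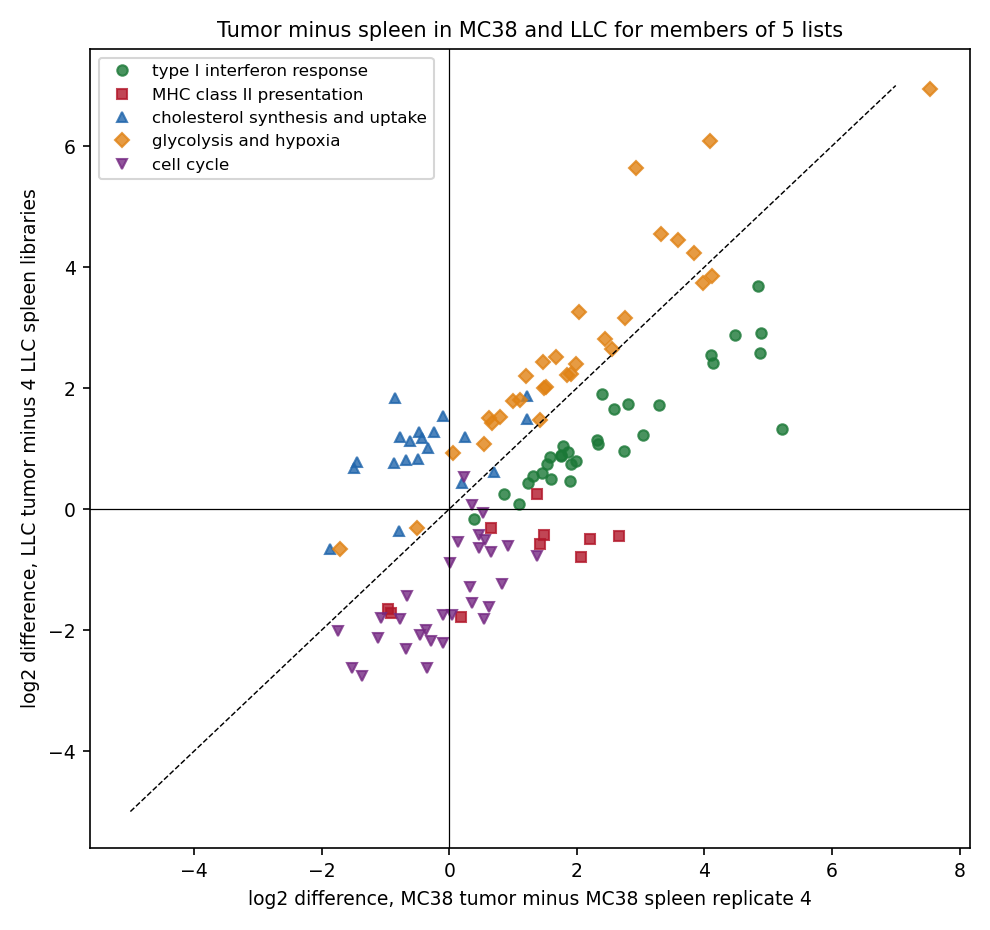
Log2 difference between tumor and spleen for members of 5 gene lists, in MC38 against spleen replicate 4 (x axis) and in LLC against 4 spleen libraries (y axis); points below the dashed line have the larger value in MC38. Type I interferon, class II and cell cycle genes lie mostly below the line, and cholesterol genes mostly above it, with list medians against all spleen libraries of 2.16 in MC38 and 0.96 in LLC for type I interferon and -0.51 and 1.07 for cholesterol.

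By the smallest adjusted p, the genes whose signed change was larger in MC38 were Slamf7, Frmd4b, P2rx4, Kmo and Grap2. Slamf7, a receptor of the SLAM family, stood at 493, 552, 521 and 548 CPM in MC38 tumor and at 41.4, 44.1, 36.8 and 47.2 CPM in MC38 spleen, while LLC tumor and spleen averaged 38.5 ± 3.65 and 51.1 ± 10.3 CPM (difference between changes 4.05 ± 0.17, adjusted p = 2.66e-14). Kmo, of the kynurenine pathway of tryptophan breakdown, averaged 26.2 ± 2.13 CPM in MC38 tumor and 9.61 ± 1.16 CPM in MC38 spleen, and 5.32 ± 0.424 and 24.3 ± 1.63 CPM in LLC tumor and spleen (3.63 ± 0.18). The adaptor gene Grap2 differed by 3.88 ± 0.20, Frmd4b by 2.49 ± 0.11 and P2rx4, an ATP-gated channel gene, by 1.94 ± 0.09. The genes whose signed change was smaller in MC38 were Fn1, Sqle, Scd2, Gramd4 and Sulf2. All 5 fell from spleen in MC38, with log2 differences of -2.83 to -0.64, so smaller does not mean less change. Fn1 averaged 477 ± 51.1 CPM in MC38 tumor and 2706 ± 314 CPM in MC38 spleen, and 11018 ± 1314 and 3973 ± 296 CPM in LLC tumor and spleen (-3.98 ± 0.16, adjusted p = 2.52e-14), lower than spleen in MC38 tumors and higher than spleen in LLC tumors. Scd2, a desaturase of fatty acid synthesis, differed by -2.45 ± 0.13, Sulf2, a heparan sulfatase, by -2.20 ± 0.12 and Gramd4 by -1.94 ± 0.11.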

How the data were processed

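Messenger RNA was sequenced from 34 libraries, prepared with a KAPA stranded kit (100 ng of RNA extracted in TRIzol, 14 PCR cycles), per the labels' protocols. The authors deposited 1 table of expected counts per gene, estimated counts of which 14.6% are not whole. The submitters' processing notes name CASAVA 1.8.2 and GRCm38 (mm10), while no aligner or counter is named (not given in the sources used here). Groups were taken from the titles, because the field that names the tumor counts upward across MC38 samples. The design had assumed whole counts, and expected counts were rounded (totals changed by at most 0.000368%). Of 24475 gene IDs 24375 had a name. The 100 without one, with 1.43% of counts, were filtered and fitted with the rest and were passed over only in naming genes.

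All 24 in vivo libraries were fitted together with edgeR 4.0.16 (R 4.3.3), its default expression filter, TMM scaling and a quasi-likelihood fit with 18 residual degrees of freedom over 13200 genes, with Benjamini-Hochberg adjustment. The fit against spleen replicate 4 left out spleen replicates 1 to 3 (21 libraries), and its lone spleen library is assumed to vary like the other groups. The difference between the MC38 and LLC changes was an interaction contrast. Data were simulated with a shared mean for all 4 MC38 spleen libraries. In them 70.1% of 2-fold changes were recovered against 4 spleen libraries, 52.2% against replicate 4 and 59.7% for the difference between changes. Of 13000 unchanged genes, 7 were called against 4 spleen libraries and 5 for the difference between changes. These rates do not cover the fat cell and neutrophil differences among the real spleen libraries. The simulated spread was that of the fit of all 24 libraries, and far fewer genes were changed than were called in the real data. The rates are therefore not those of the real fits. The biological coefficient of variation was 0.177, and 0.129 without spleen replicates 1 to 3.

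The members and lists were chosen with earlier results of these data known. Named genes are the 12 largest rises and falls by the rule given with them, for each list the up to 4 members that held against replicate 4 with the smallest adjusted p, list members that go against the majority, and 5 genes per direction for the difference between changes. The fits were repeated with upper quartile or RLE scaling, a stricter expression filter or none, DESeq2 1.42.0, only the groups compared, a replicate block, LLC spleen monocytes in place of MC38 spleen monocytes, and leaving out libraries. Counting intervals are exact at 95% and, since PCR copies carried no molecular identifiers, cover counting error only. Some genes are not reported here.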

Additional observations from a re-analysis of the deposited data

Results flagged for a closer look

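Among 327 sets of 4 libraries examined, 30 had 1 library far from the other 3 by Dixon's criterion, where chance gives about 1 in 20. For these genes spleen replicate 1 was the far value. It had 1.12 CPM of Tmem171, 28.3 of Ptgs2, 6.36 of Nr4a3, 5.24 of Il7r, 54.5 of Siglec1, 8.06 of Arg1 and 15.8 of Spp1, all higher than in the other spleen libraries, and 23.7 CPM of Flt3, lower than in them. Spleen replicate 4 stood apart, and highest, for the neutrophil genes Mpo (25 CPM), Lcn2 (280), Ngp (1118), Ltf (512), Camp (200) and S100a9 (1101). It was also the highest for Mki67 (74 CPM), Mcm6 (21.9), Mcm2 (9.33), Cd40 (43), Pkm (984), Mvd (38.6) and Ctsz (511). Kmo was highest in spleen replicate 2 (11.3 CPM).

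Single tumor libraries stood apart for 8 genes. Tumor replicate 2 was the far value for Ccl12 (362 CPM, the highest) and Tlr5 (49.6 CPM, the lowest), and tumor replicate 3 for Nfkb1 (267 CPM, the highest) and Ddit3 (62.7 CPM, the lowest). Tumor replicate 4 was the highest for Serpinb10 (7.96 CPM), Igtp (480), Uqcrfs1 (75.2) and Adipoq (1.61).

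The change from spleen differed between MC38 and LLC tumors by the interaction test for the 10 genes named for it. MC38 change minus LLC change was 4.05 for Slamf7, 2.49 for Frmd4b, 1.94 for P2rx4, 3.63 for Kmo, 3.88 for Grap2, -3.98 for Fn1, -2.48 for Sqle, -2.45 for Scd2, -1.94 for Gramd4 and -2.20 for Sulf2 on the log2 scale, all called in both fits.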

How the results depend on the processing

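Counts of genes called against all 4 spleen libraries were 3650 to 4494 higher and 3548 to 6444 lower over the alternatives, and 3990 to 4512 higher and 4633 to 4948 lower when 1 library was left out. Upper quartile scaling moved the median of all genes by -0.14. The replicate block gave 4439 higher and 4774 lower calls. Tumor and spleen libraries of the same number did not deviate together (correlations of -0.129 to -0.0116). The spleen deviations include the fat cell and neutrophil differences among the replicates, so these correlations cannot tell whether the numbers pair libraries. The count of larger changes in MC38 than in LLC was 1961 without MC38 spleen replicates 1, 2 and 3, against 3142 with them, and the cause was not tested. Larger changes outnumbered smaller ones in that comparison as reported (3142 and 2519) and with upper quartile scaling (2861 and 2832), and smaller ones outnumbered larger ones with RLE scaling (2664 larger and 2962 smaller), no filter (2438 and 3064), DESeq2 (2764 and 3190) and only the groups compared (2508 and 3074). For single genes 4649 values kept direction and side of the threshold, 11 lost the call, 3 gained one and 9 turned. With LLC spleen monocytes in place of MC38 spleen monocytes, the log2 difference turned for Cxcl12 (2.82), Rplp1 (-0.42), Car3 (4.16), Adipoq (2.28), Cfd (4.16) and Ccr2 (-0.37). Kmo lost its call with that reference (0.11). Without spleen replicates 1, 2 and 3 it turned for Car3 (1.51), Adipoq (1.90) and Cfd (1.56), and Cxcl12, Cd163 and Ccr2 lost their calls. Fcgrt against replicate 4 lost its call with DESeq2 and without tumor replicate 1, 2 or 3 (-0.40 to -0.38), while Mki67 was called lower without spleen replicate 1 (-0.73). Spleen replicate 4 is a single library. In the simulation with a shared spleen mean, 14.9% of 1.5-fold changes were recovered against it. That simulation took its spread from the fit of all 24 in vivo libraries and left 13000 of 13200 genes unchanged. Small changes can be missed against replicate 4, but the simulation does not give the share missed in the real data.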

Other observations

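Platelet markers summed to 29.2 to 53.9 CPM in tumor libraries and 1.59 to 8.44 CPM in spleen libraries, and 2 of 5 tested members rose, 1 in both fits. Red pulp macrophage markers summed to 314 to 467 CPM in tumor and 142 to 171 CPM in spleen, with 2 of 7 tested members higher in both fits and 2 lower, 1 in both fits. Red cell transcripts summed to 0.443 to 2.77 CPM in tumor and 3.11 to 348 CPM in spleen, with the highest sum in spleen replicate 2. Heat shock genes, which respond to damaged protein, went both ways, with 3 of 11 tested members higher and 3 lower, 1 and 2 of them in both fits (median -0.07, and 0.11 against replicate 4).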
